A study of Homo sapiens with 6 samples.

Results

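A set of 68 autosomal genes was high in control libraries 1 and 2 of HEK293 cells and low in control library 3 and in all 3 FAM60A-knockout libraries. Each had at least 100 counts in both controls 1 and 2, and its lower CPM (counts per 1000000 counts of the library) in those libraries was at least 8 times its highest CPM in the other 4, with 0.02 CPM added throughout. They were 68 of the 13713 autosomal genes that reached 100 counts in both controls 1 and 2 (0.496%), and of 57831 autosomal genes and 62754 genes in the whole table. Because these same values chose the genes, their levels are a description and were not tested. Among the other 13645 genes that reached the count minimum, controls 1 and 2 both lay above the other 4 libraries in 37.4%, and by at least 2-fold in 2.76%.

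Poly(A) RNA was sequenced from 3 control and 3 knockout samples of HEK293, an adherent human embryonic kidney line. The labels also name HEK293T, its derivative that carries the SV40 large T antigen. The knockout samples came from a pool of cells transfected with Cas9 and guides against 3 regions of FAM60A and selected with puromycin, so they are not a clone. The labels call the other samples controls and do not say whether they had received a vector or puromycin. Nothing in the labels ties the 3 replicates of a group to separate cultures, so any p-value measures the spread between these samples, which may be technical.

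FAM60A encodes a subunit of the Sin3/HDAC complex, a corepressor that removes acetyl groups from histones. Its counts, listed under the current symbol SINHCAF, were 11028, 10165 and 12792 in controls 1 to 3 and 5684, 5793 and 5449 in knockout libraries 1 to 3. Control 3 therefore carried its label for the targeted gene, although it sided with the knockout libraries for the 68 genes. Processed pseudogenes can share reads with FAM60A, and bulk RNA does not tell a partial loss in all cells from a full loss in some.

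Library totals lay between 88361827 and 93346824 counts. Across the 21031 genes that averaged 10 counts or more, 1 gene differed by at least 8-fold between controls 1 and 2 and at most 1 between any pair of knockout libraries. Control 3 differed by that much from controls 1 and 2 in 625 to 636 genes and from the knockout libraries in 219 to 241. Between controls 1 and 2 and the knockout libraries the number was 532 to 579. Control 3 thus stood apart from both, but by this count it was nearer the knockout libraries. The 14 genes listed as HEK293 markers summed to 2610 and 2560 CPM in controls 1 and 2, 1570 CPM in control 3 and 1270 to 1370 CPM in knockout. VIM and KRT8 held more than any other of those 14 markers, at a mean of 728 and 760 CPM in controls 1 and 2. In 9 of the 14 controls 1 and 2 lay above all other libraries, and in 1, PAX2, below them. Those 9 were 69.2% of the 13 markers that reached the count minimum, beside 37.4% of all other genes. PAX8 held at most 9 counts in any library. Of 13 markers tested, 1 was called lower (LHX1), beside 3.72% of all genes tested. The 10 markers of differentiated epithelium summed to 228 and 229 CPM in controls 1 and 2, 524 CPM in control 3 and 577 to 599 CPM in knockout. EPCAM made up most of that difference (114, 311 and a mean of 419 CPM). In 4 of the 10 controls 1 and 2 lay below all other libraries, and in 1, KRT7, above them. KRT5, KRT14 and GRHL2 held at most 8 counts anywhere. Of the 4 that reached the count minimum, 3 had a ratio of the rule of at most 0.5, beside 1842 of 13645 other genes. Leukocyte markers summed to at most 2.12 CPM, with 9 of 10 under 1 CPM everywhere, and all 8 hepatocyte markers stayed under 1 CPM. Fibroblast markers summed to between 27.3 and 31.3 CPM in all 6 libraries, but single markers differed in both directions. COL1A1 had means of 26.7 CPM in controls 1 and 2 and 14.3 CPM in knockout. LUM and DCN were called higher in knockout, 2 of the 7 tested, beside 3.34% of all genes tested. The part that these shifts play in the 68 genes was not tested. In bulk RNA, fewer cells that express a gene and less RNA of it per cell cannot be told apart.

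Matrix and contractile genes such as CCN2 and ANKRD1 are common targets of YAP and TAZ, coactivators at the end of the Hippo pathway that reach DNA through TEAD transcription factors. HEK293 cells also carry RNAs typical of neurons, although they were derived from kidney. C2H2 zinc finger genes, the largest class of human transcription factor genes, lie in large part in clusters on chromosome 19, and many of their products silence transposable elements.

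Of the 68 genes, 46 matched an entry in the RefSeq promoter table (GRCh38.p14, 250 bases before to 50 after each start). The TEAD-type hexamer GGAATG was searched in these windows on both strands (its reverse complement is CATTCC). It was found in 9 of 46 (19.6%), beside 10.4% of the 10129 other matched genes that reached the count minimum and 14% of all 26246 autosomal promoters. The stretches below are shown because they hold the hexamer in the YAP and TAZ targets CCN2 and ANKRD1 and in the matrix genes THBS2 and COL12A1. Each is 30 bases of the minus strand, read 5′ to 3′, with the hexamer or its reverse complement in capitals.
CCN2, chr6:131951450-131951479, minus strand: ggaGGAATGcgaGGAATGtccctgtttgtg
CCN2, chr6:131951524-131951553, minus strand: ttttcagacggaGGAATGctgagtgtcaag
ANKRD1, chr10:90921198-90921227, minus strand: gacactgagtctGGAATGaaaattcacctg
ANKRD1, chr10:90921290-90921319, minus strand: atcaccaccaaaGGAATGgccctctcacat
THBS2, chr6:169253920-169253949, minus strand: CATTCCttcgaaGGAATGaattaaacgtgc
COL12A1, chr6:75206203-75206232, minus strand: cctcacgccgaaGGAATGctcgaagtatgc
CCN2 held 3 matches in its window, the farthest beginning 169 bases before the start, and ANKRD1 held matches 128 and 220 bases before its start. THBS2 held the hexamer and its reverse complement 91 and 103 bases before its start. The other genes with a match were CPA4, IFI16, RHOD, ZNF141 and ZNF439, named after their values were seen. A match of letters is not a bound site, and no binding was measured here.

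Summed over the set, the 68 genes held 1760 and 1750 CPM in controls 1 and 2, 64.9 CPM in control 3 and 49.1, 47.9 and 48.3 CPM in knockout libraries 1 to 3. The median gene kept 1.85% of its mean CPM of controls 1 and 2 in control 3 (range 0 to 10.9%) and 0.846% in the mean of the knockout libraries (range 0 to 10.9%). For all genes that reached the count minimum, those medians were 95.1% and 90.4%. Controls 1 and 2 differed little from each other, with a ratio of 0.705 to 1.34 over the 68 genes. The ratio used by the rule ran from 8.06 to 269, with a median of 23.8.

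Many genes were at the limit of detection in the low libraries. At most 3 counts were found for 20 genes in control 3 and for 29, 28 and 27 genes in knockout libraries 1, 2 and 3. In 14 genes all 4 low libraries held at most 3 counts. Only FAM162B, a membrane protein, and TNFRSF10A-DT, a long non-coding RNA, were at 0 in all knockout libraries. Against a floor of 3 counts over the group, they were at least 111-fold and at least 108-fold higher in controls 1 and 2. Of the 68 genes, 64 were protein-coding (94.1%) and 4 were long non-coding RNAs (5.88%), beside 87.4% and 6.52% of all genes that reached the minimum. In the plot of the genes by library, each gene's controls 1 and 2 sit far to the right of its other points.

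**Figure D1:**
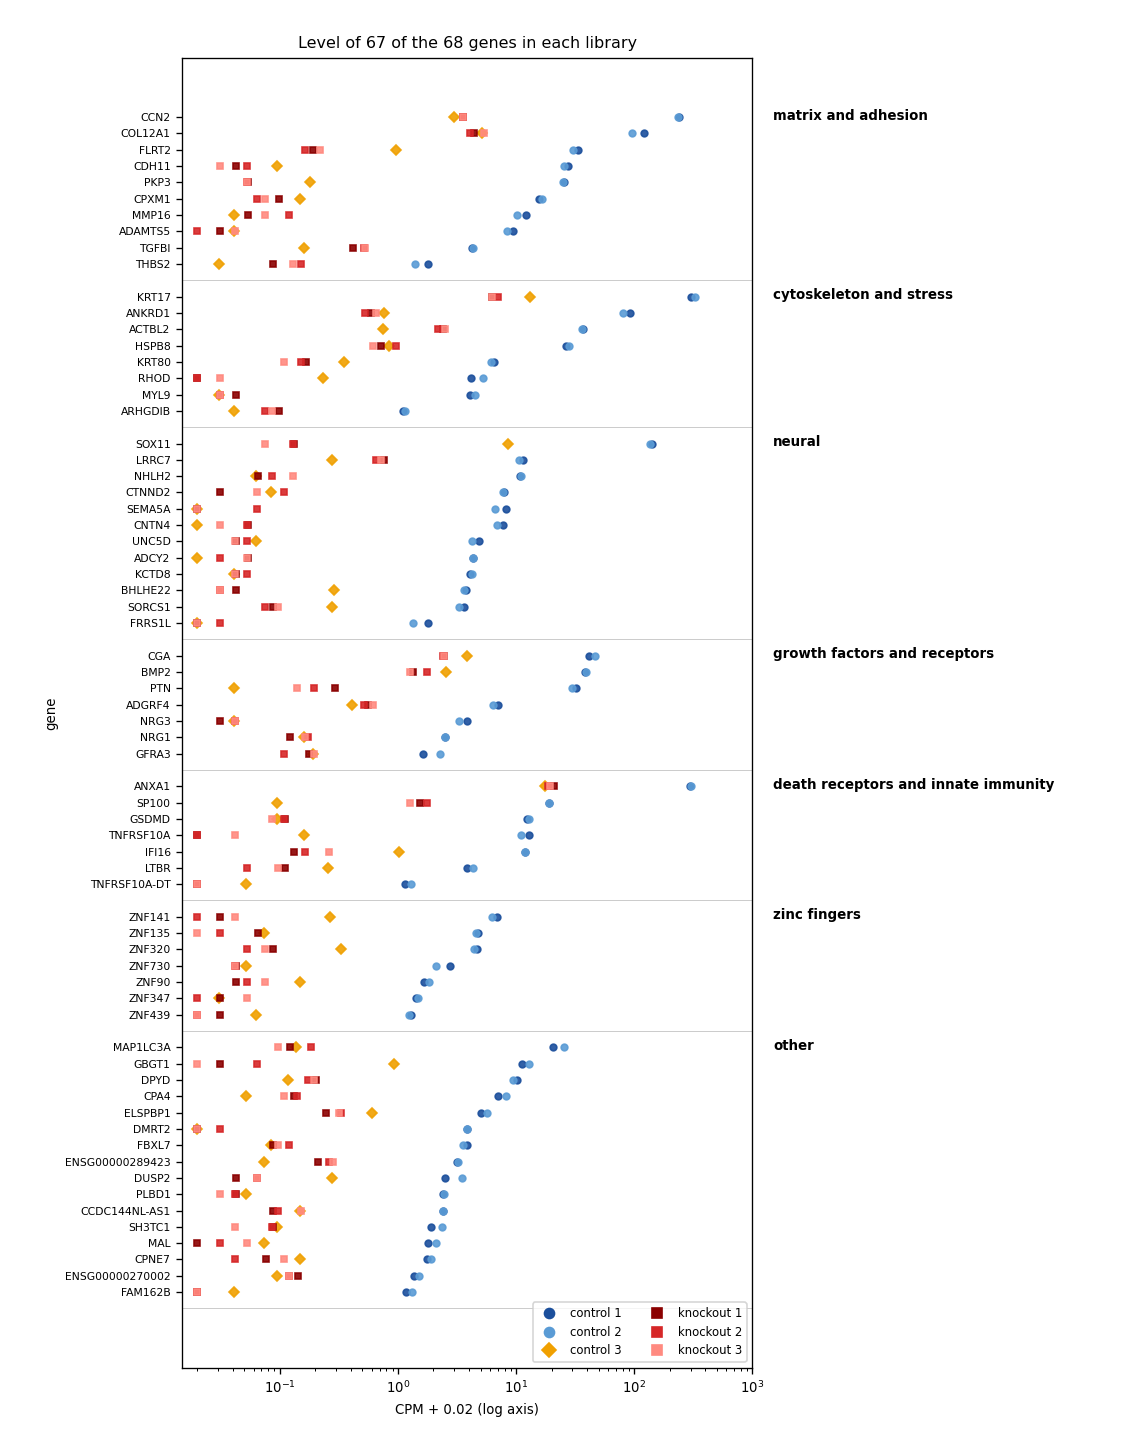
Level of 67 of the 68 genes (rows, grouped by role) in the 6 libraries, as CPM with 0.02 added on a log axis, with circles for controls 1 and 2, diamonds for control 3 and squares for the knockout libraries. Every row shows the gap of at least 8-fold that chose the gene, and the diamonds fall on either side of the squares.

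Genes of the extracellular matrix and of cell adhesion made up 10 of the 68. Roles were assigned to the 68 only, after their values were seen. The size of a role group is therefore not set against other expressed genes, except for zinc finger genes. The median of the matrix and adhesion genes was 0.741% of controls 1 and 2 in control 3 and 0.548% in knockout. CCN2, a secreted matricellular protein, was counted 21941 and 21764 times in controls 1 and 2, 274 times in control 3 and 315, 322 and 321 times in knockout. Its level in control 3 was 1.25% of controls 1 and 2 (95% exact interval 1.1 to 1.41) and in knockout 1.51% (1.41 to 1.61). Such intervals cover counting error only. COL12A1, a collagen chain that binds to collagen fibrils, had 11167 and 8890 counts in controls 1 and 2, 476 in control 3 and 386, 370 and 484 in knockout. Control 3 thus lay within the knockout range for counts of COL12A1, and both were near 4% to 5% of controls 1 and 2 (4.73% and 4.25%). THBS2, a matricellular glycoprotein, had 163 and 129 counts in controls 1 and 2, 1 in control 3 and 6, 12 and 10 in knockout, which gives control 3 a share of 0.682% (0.0172 to 3.83).

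CDH11, a cadherin of mesenchymal cells, showed the highest ratio of the 68, 269. It was counted 2567 and 2376 times in controls 1 and 2, 7 times in control 3 and 2, 3 and 1 times in knockout. ADAMTS5, a secreted protease that cleaves aggrecan, followed with 878 and 779 counts against 2 in control 3 and 1, 0 and 2 in knockout. For PKP3, a plaque protein of desmosomes, there were 2374 and 2339 counts in controls 1 and 2, 15 in control 3 and 3 in each knockout library. CDH11 and PKP3 belong to different kinds of junction, and both were close to absent from all 4 low libraries. CPXM1, a secreted carboxypeptidase-like protein, fell in the same range, with 1454 and 1535 counts against 12 in control 3 and 7, 4 and 5 in knockout. FLRT2, an adhesion protein with leucine-rich repeats, differed in that control 3 kept more than knockout: 3126 and 2812 counts in controls 1 and 2, 88 in control 3 and 15, 13 and 18 in knockout. MMP16, a membrane-bound matrix protease, had 1114 and 947 counts in controls 1 and 2, 2 in control 3 and 3, 9 and 5 in knockout.

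The fold threshold of the rule ran through this group. TGFBI, a matrix protein induced by TGF-beta, was the last gene inside it at a ratio of 8.06, with 392 and 403 counts in controls 1 and 2, 13 in control 3 and 35, 45 and 46 in knockout. The next inside were GFRA3 at 8.23 and ELSPBP1 at 8.36. Just outside lay DSEL at 7.94, ADAMTS16-DT at 7.87 and FN1 at 7.84. FN1, which encodes fibronectin, was far more abundant than any of the 68 by counts, with 79336 and 71554 in controls 1 and 2, 9148 in control 3 and 4463, 4479 and 5853 in knockout. By the count minimum, ARHGDIB (101 counts in control 1) and TNFRSF10A-DT (104) were just inside, and GLP2R and NKX2-3, each with 89 counts in control 2, were just outside.

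Cytoskeletal and stress-related genes formed a group of 8, with medians of 2.52% in control 3 and 2.0% in knockout. KRT17, a type I keratin, took more reads than any other of the 68 genes: 27878 and 30243 in controls 1 and 2, 1232 in control 3 and 546, 641 and 563 in knockout. Control 3 kept 4.22% of controls 1 and 2 (95% exact interval 3.99 to 4.47) and knockout 2.07% (1.97 to 2.17), so KRT17 was low in both but lower in knockout. ANKRD1, an ankyrin repeat protein of stressed muscle and a target of YAP, was counted 8482 and 7423 times in controls 1 and 2, 69 times in control 3 and 51, 46 and 57 times in knockout. HSPB8, a small heat shock protein, had 2455 and 2609 counts in controls 1 and 2, 77 in control 3 and 62, 86 and 54 in knockout. For HSPB8 control 3 lay within the knockout range, and for ANKRD1 it lay above it by a small margin.

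ACTBL2, an actin-like protein, was lower in control 3 than in knockout, with 3387 and 3331 counts in controls 1 and 2, 68 in control 3 and 210, 198 and 226 in knockout. RHOD, a small GTPase, went the other way, with 386 and 488 counts in controls 1 and 2, 20 in control 3 and 0, 0 and 1 in knockout. MYL9, the regulatory light chain of smooth muscle and non-muscle myosin, had 373 and 418 counts in controls 1 and 2, 1 in control 3 and 2, 1 and 1 in knockout. MYL9 was thus near the floor in all 4 low libraries. KRT80, a type II keratin, had 597 and 572 counts against 31 in control 3 and 13, 12 and 8 in knockout. KRT17, ACTBL2 and the zinc finger genes have close copies elsewhere in the genome, and reads shared with these could not be told apart in the deposited counts.

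Genes known for roles in neurons or neural progenitors numbered 12, with medians of 0.67% in control 3 and 0.585% in knockout. SOX11, a transcription factor of neural progenitors, was the most abundant by counts and split the low libraries most. It was counted 13065 and 12803 times in controls 1 and 2, 803 times in control 3 and 10, 10 and 5 times in knockout. Its level was 6.18% of controls 1 and 2 in control 3 (95% exact interval 5.76 to 6.63) but 0.0665% in knockout (0.043 to 0.0981), a ratio of 76.6 between them with 0.02 CPM added. BHLHE22, a neuronal helix-loop-helix repressor, resembled SOX11 at lower counts, with 345 and 335 in controls 1 and 2, 25 in control 3 and 2, 1 and 1 in knockout. NHLH2, a neuronal transcription factor of the same class, had no such step, with 1006 and 1024 counts in controls 1 and 2, 4 in control 3 and 4, 6 and 10 in knockout.

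The axonal and synaptic genes of the set varied in what the low libraries kept. CNTN4, an adhesion protein of axons, had 714 and 643 counts in controls 1 and 2, 0 in control 3 and 3, 3 and 1 in knockout. SEMA5A, a guidance cue, had 757 and 614 counts in controls 1 and 2, 0 in control 3 and 0, 4 and 0 in knockout. UNC5D, a receptor of the netrin receptor family, had 448 and 393 counts in controls 1 and 2, 4 in control 3 and 2, 3 and 2 in knockout. For each of these 3 genes the 95% exact interval of the ratio of control 3 to knockout held 1. CTNND2, a catenin of neuronal junctions, had 729 and 725 counts against 6 in control 3 and 1, 8 and 4 in knockout, and ADCY2, an adenylyl cyclase of brain, 402 and 404 against 0 and 3, 1 and 3. LRRC7, a postsynaptic scaffold protein, was kept at a higher level in knockout, with 1057 and 984 counts in controls 1 and 2, 24 in control 3 and 66, 58 and 64 in knockout. KCTD8, an auxiliary subunit of GABA-B receptors, had 379 and 390 counts against 2 in control 3 and 2, 3 and 2 in knockout, and FRRS1L, an assembly factor of AMPA receptors, 163 and 122 against 0 and 0, 1 and 0. SORCS1, a sorting receptor, kept more in control 3, with 335 and 304 counts in controls 1 and 2, 24 in control 3 and 6, 5 and 7 in knockout.

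Secreted growth factors, hormones and their receptors numbered 7. By their medians they kept more than the other groups, 5.72% in control 3 and 5.33% in knockout. BMP2, a bone morphogenetic protein, had 3559 and 3606 counts in controls 1 and 2, 236 in control 3 and 116, 160 and 113 in knockout. CGA, the alpha subunit shared by the glycoprotein hormones, had 3820 and 4304 counts in controls 1 and 2, 360 in control 3 and 214, 219 and 222 in knockout. In both genes control 3 lay above all knockout libraries, at 6.56% and 8.83% of controls 1 and 2. PTN, which encodes the heparin-binding growth factor pleiotrophin, had 2993 and 2754 counts in controls 1 and 2, 2 in control 3 and 24, 16 and 11 in knockout. Control 3 kept 0.0693% (0.00839 to 0.25) of PTN and knockout 0.612% (0.454 to 0.803). PTN was thus lowest in control 3. NRG1, which encodes a ligand of ERBB receptors, had 231 and 232 counts in controls 1 and 2, 13 in control 3 and 9, 14 and 13 in knockout. NRG3, a ligand of ERBB4, had 352 and 304 counts in controls 1 and 2, 2 in control 3 and 1, 2 and 2 in knockout. ADGRF4, an adhesion G protein-coupled receptor, kept 5.72% in control 3 and 8.06% in knockout.

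Death receptor and innate immune genes numbered 8, with medians of 1.92% in control 3 and 1.03% in knockout. ANXA1, a phospholipid-binding annexin with anti-inflammatory effects, was nearly as abundant as KRT17 by counts, with 27771 and 28335 in controls 1 and 2, 1640 in control 3 and 1858, 1703 and 1748 in knockout. Its shares were 5.82% in control 3 (5.54 to 6.11) and 6.51% in knockout (6.32 to 6.69). TNFRSF10A, a receptor for the death ligand TRAIL, had 1199 and 1024 counts in controls 1 and 2, 13 in control 3 and 0, 0 and 2 in knockout. Its divergent non-coding neighbour TNFRSF10A-DT, which begins 119 bases away, had 104 and 118 counts against 3 in control 3 and 0 in each knockout library. GSDMD, the pore-forming effector of pyroptosis, had 1139 and 1198 counts in controls 1 and 2, 7 in control 3 and 8, 8 and 6 in knockout.

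Interferon-inducible nuclear proteins were split. SP100, a component of PML bodies, had 1760 and 1779 counts in controls 1 and 2, 7 in control 3 and 133, 159 and 113 in knockout, so it was lowest in control 3 (0.394% against 7.87% in knockout). IFI16, a DNA sensor, had 1092 and 1096 counts in controls 1 and 2, 93 in control 3 and 10, 13 and 22 in knockout, so it was lowest in knockout (8.47% against 1.41%). LTBR, the lymphotoxin beta receptor, lay on the side of IFI16, with 353 and 397 counts against 22 in control 3 and 8, 3 and 7 in knockout.

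Zinc finger genes of the C2H2 class numbered 7, of 394 autosomal protein-coding ZNF genes that reached the count minimum (1.78%), and 6 of them were among the 198 on chromosome 19 (3.03%). They kept a median of 3.42% in control 3 and 0.925% in knockout, and control 3 lay above every knockout library in 6 of 7. Of the other 387 ZNF genes, control 3 lay above every knockout library in 51.7%. ZNF141 showed the widest step, with 642 and 578 counts in controls 1 and 2, 23 in control 3 and 1, 0 and 2 in knockout. ZNF320 followed, with 433 and 412 counts in controls 1 and 2, 29 in control 3 and 6, 3 and 5 in knockout. ZNF135 had 437 and 424 counts in controls 1 and 2, 5 in control 3 and 4, 1 and 0 in knockout. ZNF347, with 130 and 135 counts in controls 1 and 2 and at most 3 in any low library, was the exception in which control 3 fell inside the knockout range.

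The other 16 genes shared no single role, with medians of 2.26% in control 3 and 1.57% in knockout. MAP1LC3A, a protein of autophagosomes, had 1921 and 2380 counts in controls 1 and 2, 11 in control 3 and 9, 15 and 7 in knockout. DMRT2, a transcription factor of somite development, had 358 and 353 counts in controls 1 and 2, 0 in control 3 and 0, 1 and 0 in knockout. GBGT1, a glycosyltransferase, had 1052 and 1197 counts in controls 1 and 2, 84 in control 3 and 1, 4 and 0 in knockout. For MAP1LC3A and DMRT2 the interval of the ratio of control 3 to knockout held 1, while GBGT1 kept 7.44% in control 3 (5.91 to 9.25) and 0.152% in knockout (0.0496 to 0.357). DPYD, the rate-limiting enzyme of pyrimidine breakdown, had 943 and 872 counts in controls 1 and 2, 9 in control 3 and 16, 14 and 16 in knockout. DUSP2, a phosphatase of MAP kinases, had 228 and 324 counts in controls 1 and 2, 24 in control 3 and 2, 4 and 4 in knockout. The long non-coding RNA ENSG00000289423 was lower in control 3, with 5 counts, than in knockout, with 17, 22 and 24, beside 290 and 301 in controls 1 and 2.

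Control 3 and the knockout libraries were thus low for the same 68 genes, as the rule requires, but not at the same levels. Control 3 lay above every knockout library in 33 genes, below every one in 21 and within their range in 14. Among the other genes that reached the count minimum, control 3 lay above every knockout library in 50.3% and below every one in 35.5%, so these shares are near those of the background. By counting error alone, the 95% exact interval of the ratio of control 3 to knockout lay above 1 for 21 genes, below 1 for 10 and held 1 for 37. Control 3 exceeded the mean of knockout by at least 4-fold in 10 genes and by at least 8-fold in 5, namely SOX11 (76.6), GBGT1 (24), RHOD (9.9), ZNF141 (8.56) and BHLHE22 (8.25). The 5 lowest ratios were those of SP100 (0.0626), PTN (0.198), THBS2 (0.249), ENSG00000289423 (0.291) and ACTBL2 (0.316). Control 3 is a single library, so these differences have no replicate check.

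**Figure D2:**
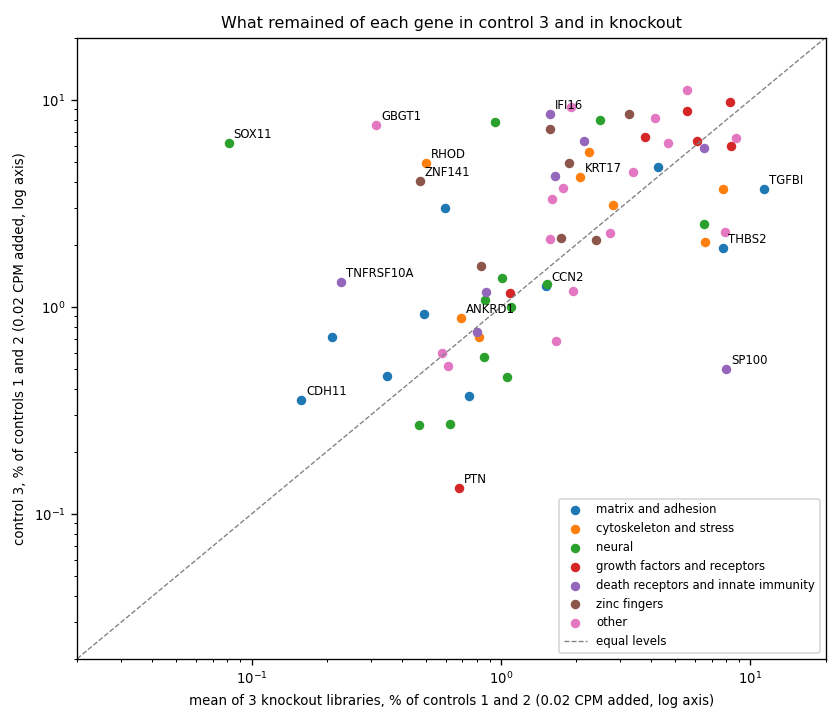
Share of the mean CPM of controls 1 and 2 that each of the 68 genes kept in control 3 (vertical axis, %) and in the mean of the 3 knockout libraries (horizontal axis, %), with 0.02 CPM added and both axes on a log scale. Points on the dashed line would have equal shares, SOX11 and GBGT1 lie far above it and SP100 and PTN far below.

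The fit of knockout against control across all genes treats control 3 as a control, and so it meets the step between control 3 and controls 1 and 2 as spread. Of the 68 genes, 42 passed its filter on low counts and 26 did not, CDH11, GSDMD and MYL9 among them. The filter asked for enough counts in 3 libraries, so a gene passed only if a low library also held some. By edgeR's quasi-likelihood test with Benjamini-Hochberg adjustment, 27 of the 42 were called lower in knockout (adjusted p of at most 0.05 and a log2 fold change of at least 1 in size), beside 3.72% of all 20992 genes tested (7.06% were called in either direction). The rule used the same libraries, so nothing is read from this count. It also rested on single libraries: 68 of 68 were called without control 3, beside 2114 of 21686 genes called lower. Without control 1 or control 2 the count was 2 of 42, beside 330 of 21470 and 237 of 21462 genes. Without any of the knockout libraries 0 of 68 were called, where 54 to 59 had an unadjusted p under 0.05. Those fits called 55 to 153 genes lower among all tested. DESeq2 called 41 of 42 and limma-voom 2 of 42, beside 1070 and 711 of 20992 genes called lower. With no filter 51 of 68 were called, beside 754 of 40122 genes.

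Wider lists of genes, chosen with earlier results of these data known, were read beside the 68. Their calls count control 3 as a control, which is not the pattern of the 68. Some genes called lower, INA of the neuronal list among them, had more CPM in control 3 than in controls 1 and 2. The contractile and mesenchymal list, 36 genes of smooth muscle, actomyosin and mesenchyme, held 4 of the 68 (ANKRD1, ANXA1, CCN2 and MYL9). Of its other 28 genes tested, edgeR's quasi-likelihood test called 5 lower and 0 higher (ACTG2, CNN1, CNN2, TPM2 and DES), beside 3.72% and 3.34% of all genes tested. The median log2 fold change of those 28 was -0.72, against -0.01 for all genes tested. Without control 3 the calls were 15, of which 14 lower, beside 4965 of 21686 genes tested, of which 2114 lower. Without other single libraries the calls in this list were 1 or 2, all lower.

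Controls 1 and 2 lay above all other libraries in 18 of the 23 other genes of this list that reached the count minimum (78.3%), and by at least 2-fold in 8, beside 37.4% and 2.76% of all other genes. CCN1, a matricellular protein related to CCN2, was the nearest to the threshold, with 15593 and 17087 counts in controls 1 and 2, 1404 in control 3 and 1864, 2124 and 2048 in knockout. CNN1, the smooth muscle calponin, had 590 and 577 counts in controls 1 and 2, 96 in control 3 and 26, 27 and 26 in knockout, and was called lower (log2 fold change -3.84, edgeR adjusted p = 0.0192). That call was lost without control 1 or 2 or any knockout library, where the edgeR adjusted p was 0.057 to 0.109. VIM, the intermediate filament of mesenchymal cells, had 67461 and 67908 counts in controls 1 and 2, 28924 in control 3 and 22202, 27081 and 22257 in knockout. VIM was not called (log2 fold change -1.04, edgeR adjusted p = 0.0745), but it was without control 3 (edgeR adjusted p = 1.36e-11). The list as a whole summed to 3050 and 3000 CPM in controls 1 and 2, 1340 CPM in control 3 and 1190 to 1270 CPM in knockout. This sum includes the 4 genes of the rule, of which ANXA1 and CCN2 held means of 302 and 235 CPM in controls 1 and 2. Part of the drop was therefore set by the rule, and nothing is read from the sum.

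**Figure D3:**
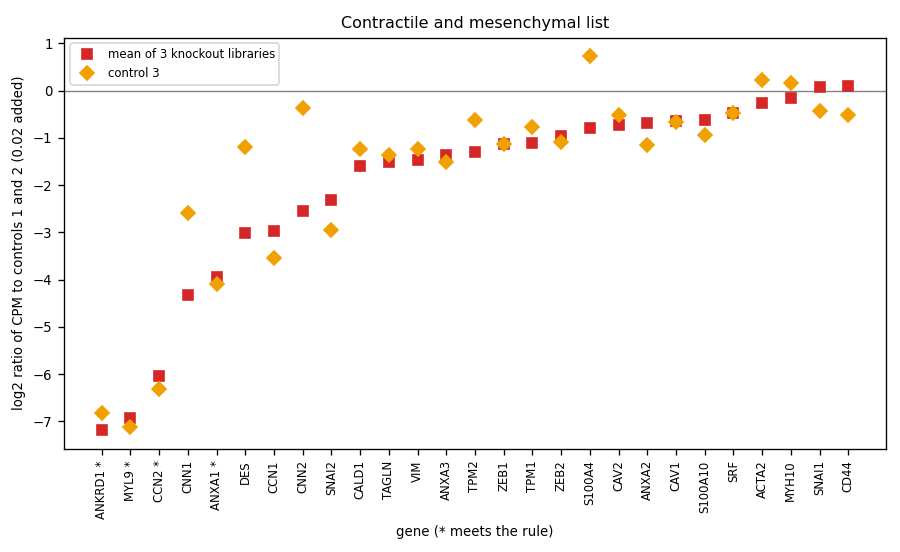
Log2 ratio of CPM to the mean of controls 1 and 2 (0.02 added) for genes of the contractile and mesenchymal list with at least 100 counts in controls 1 and 2, with squares for the mean of the 3 knockout libraries and diamonds for control 3. The 4 genes that meet the rule (asterisks) lie at the lower left with CNN1, and most of the others lie below 0 in both.

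The extracellular matrix list held COL12A1 and THBS2. Of its other 45 tested genes 5 were called lower and 3 higher, beside 3.72% and 3.34% of all genes tested. Without control 3 the calls among these were 20, of which 7 lower. They were 2, of which 1 lower, without control 1 or 2, and 1, with 0 lower, without a knockout library. Controls 1 and 2 lay above the rest in 9 of 35 (25.7%), beside 37.4% of all other genes. They did so by at least 2-fold in 3 (8.57%), beside 2.76%. FN1 was called lower (log2 fold change -3.28, edgeR adjusted p = 0.0343), and that call was lost without control 1 or 2 or any knockout library, where the edgeR adjusted p was 0.0877 to 0.152. DCN, which encodes decorin, was called higher, also without each single library, with 0 and 1 counts in controls 1 and 2, 1 in control 3 and 30, 33 and 33 in knockout.

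The neuronal list held SOX11 and NHLH2. Of its other 29 tested genes 5 were called lower and 2 higher, beside 3.72% and 3.34% of all genes tested. SYT1, a calcium sensor of synaptic vesicles, was called higher, with 19 and 16 counts in controls 1 and 2, 25 in control 3 and 1490, 1473 and 1520 in knockout. SOX3, a transcription factor of neural progenitors, was called lower, with 461 and 474 counts in controls 1 and 2, 86 in control 3 and 48, 58 and 47 in knockout (log2 fold change -2.58, edgeR adjusted p = 0.04). The call of SYT1 was made without each single library, and that of SOX3 was lost without control 1 or 2 or any knockout library, where the edgeR adjusted p was 0.104 to 0.164. The axon guidance list held SEMA5A and UNC5D. Of its other 49 tested genes 3 were called lower and 2 higher, beside the same shares of all genes tested. Without control 3 the calls were 17 in the neuronal list, of which 8 lower, and 15 in the axon guidance list, of which 3 lower. Without any other library they were 3 and between 1 and 4. Controls 1 and 2 lay above the rest in 8 of 17 neuronal genes (47.1%) and in 9 of 44 axon guidance genes (20.5%), beside 37.4% of all other genes. They did so by at least 2-fold in 3 neuronal (17.6%) and 0 axon guidance genes, beside 2.76%.

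The growth factor ligand list, which also holds receptors and antagonists of such ligands, held BMP2. Of its other 77 tested genes 7 were called lower and 3 higher, beside 3.72% and 3.34% of all genes tested. The epithelial adhesion list held CDH11, PKP3 and KRT17, and of its other 32 tested genes 1 was called in each direction. The death receptor list held TNFRSF10A, and of its other 16 tested genes 0 were called lower and 1 higher. The list of interferon-inducible and antigen-presenting genes held IFI16, and of its other 39 tested genes 2 were called lower and 6 higher. Without control 3 the calls in these 4 lists were 38, 16, 6 and 16, of which 12, 6, 3 and 4 were lower. Without any other library they were 0 to 4. Controls 1 and 2 lay above the rest in 16 of 54 growth factor (29.6%) and 7 of 26 epithelial adhesion genes (26.9%). They did so in 7 of 13 death receptor (53.8%) and 9 of 28 interferon and antigen-presenting genes (32.1%), beside 37.4% of all other genes. By at least 2-fold they did so in 3, 0, 2 and 2 of these, in the same order, beside 2.76%.

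The lists of developmental transcription factors (homeobox, T-box, forkhead, GATA, TWIST and HAND genes), kidney development, ion channels and protocadherins held none of the 68. Of their 61, 27, 63 and 31 tested genes, 3, 3, 3 and 0 were called lower and 1, 1, 4 and 3 higher, beside 3.72% and 3.34% of all genes tested. In ion channel genes controls 1 and 2 lay above the rest in 1 of 32 (3.12%), beside 37.4% of all other genes. They did so in 24 of 55 developmental transcription factor (43.6%) and 8 of 22 kidney development genes (36.4%). By at least 2-fold they did so in 0 ion channel, 4 developmental transcription factor and 2 kidney development genes, beside 2.76% of all other genes. In protocadherins, adhesion molecules of neurons, they lay above the rest in 9 of 14 (64.3%) and by at least 2-fold in 5. The count minimum in controls 1 and 2 leaves out genes that are high only elsewhere. All 61 protocadherins listed summed to 196 and 174 CPM in controls 1 and 2, 113 CPM in control 3 and 277, 266 and 295 CPM in knockout. By that sum knockout held the most. PCDH17 had 879 and 825 counts in controls 1 and 2, 8 in control 3 and 131, 143 and 160 in knockout. Without control 3 the calls in these 4 lists were 12, 11, 28 and 28, of which 6, 4, 5 and 25 were lower. Without any other library they were 0 to 5.

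On the genome the 68 genes lay on 18 chromosomes. Among genes that reached the count minimum, the only neighbours were TNFRSF10A and TNFRSF10A-DT. PLBD1 and ARHGDIB on chromosome 12 had 3 such genes between them, whose rule ratios were 0.691 to 0.937. ZNF320 and ZNF347 on chromosome 19 also had 3 between them, with ratios of 1.29 to 1.92. The genes between these pairs therefore did not come near the rule. Wider gaps on chromosome 19 held some genes with higher ratios. Between ELSPBP1 and ZNF320 the highest was 7.27 (ZNF600, median 0.926 over 100 genes). Between ZNF90 and ZNF730 it was 4.41 (ZNF486, median 1.47 over 14 genes). Of the 66 genes placed on GRCh38.p14, the median length was 30771 bases, beside 28944 for the other genes placed. Genes longer than 200 kb were 13 of the 66 (19.7%), beside 7.28% of the others.

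The short arm of chromosome 5 held 4 of the 68, ADCY2, SEMA5A, CTNND2 and FBXL7, within 8.54 Mb (chr5:7396138-15939793, GRCh38.p14). FBXL7, an F-box protein, had 355 and 330 counts in controls 1 and 2, 6 in control 3 and 6, 9 and 7 in knockout. This stretch held 22 genes that reached the count minimum. The 18 that did not meet the rule had a median log2 ratio to controls 1 and 2 of 0.19 in knockout (range -2.96 to 1.88) and -0.06 in control 3 (range -2.34 to 2.11). CCT5, a chaperonin subunit in the middle of the stretch, had 84675 and 85360 counts in controls 1 and 2, 78256 in control 3 and 99964, 101366 and 96486 in knockout. The genes in between lay on both sides of their level in controls 1 and 2.

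**Figure D4:**
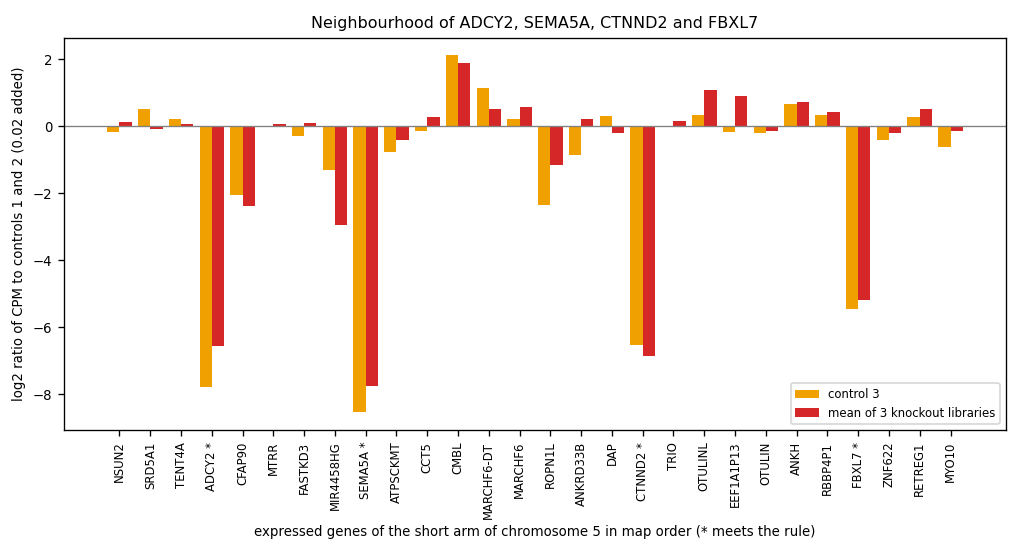
Log2 ratio of CPM to the mean of controls 1 and 2 (0.02 added) for genes with at least 100 counts in controls 1 and 2 along the short arm of chromosome 5, in map order, with bars for control 3 and for the mean of the 3 knockout libraries. The 4 genes that meet the rule (asterisks) lie below -5 in both, and the genes between them lie between -2.96 and 2.11.

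CpG content separates broad classes of promoters, since CpG-rich ones are typical of genes used in most cells. Over the 46 windows of 300 bases that matched, the median ratio of observed to expected CpG was 0.634, beside 0.85 for the 10129 other genes that reached the count minimum and 0.581 for all 26246 autosomal promoters. A ratio of at least 0.6, a common mark of CpG-rich promoters, was found in 54.3%, 85.6% and 49.1%. ANXA1 had no CpG in its window, while CNTN4, COL12A1 and SORCS1 had ratios of 1.05, 1.01 and 1.03. By the median the 46 were poorer in CpG than other expressed genes, but both kinds of promoter were present.

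Other motifs were counted in the same windows on both strands. The AP-1-type motif TGANTCA, where N is any base, was found in 7 of 46 (15.2%), beside 4.17% of the other expressed genes and 7.73% of all autosomal promoters. The TATA-type motif TATAAA was found in 6 (13.0%), beside 5.21% and 12%. CCAAT was found in 37.0%, 36.9% and 35.4%, and the CArG box of SRF in 2.17%, 1.04% and 1.3%. For the TEAD-type, AP-1-type and TATA-type motifs the share among the 46 lay above that of other expressed genes, and for the TATA-type motif it was near that of all promoters. None of these shares was tested, and a CArG box can overlap the TATA-type motif.

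**Figure D5:**
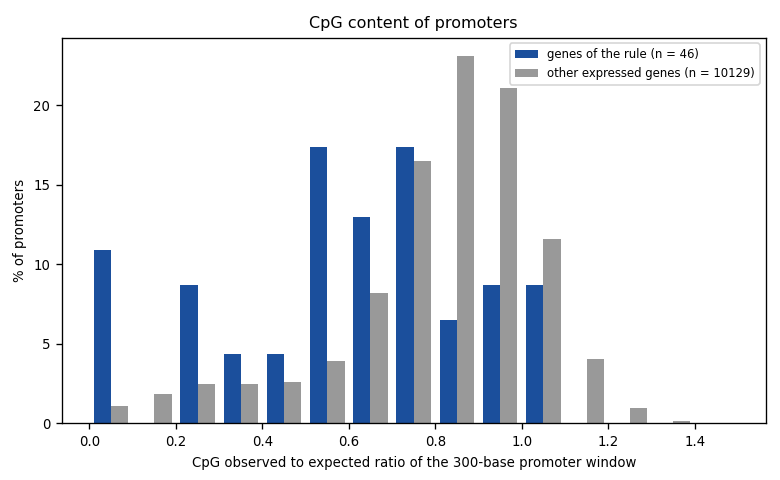
Share of promoters (%, vertical axis) by the ratio of observed to expected CpG in the 300-base window (horizontal axis, bins of equal width), for 46 of the 68 genes (blue) and 10129 other genes with at least 100 counts in controls 1 and 2 (grey). The blue bars spread over the low ratios, and the grey bars gather around their median of 0.85.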

How the data were processed

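Whole-number read counts for 62754 Ensembl genes in 6 libraries were used as the authors deposited them, without normalization. The submitters' processing notes name STAR 2.7.10b, featureCounts 2.0.0 and hg38, the paper's methods name Salmon and the labels hg19, and which of these made the table is not given in the sources used here. Counting shared reads between close copies, or on another annotation, would change single genes.

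The 68 genes and all gene lists were chosen with earlier results of these data known, and the assignment of the 68 to roles was made after their values were seen. CPM was the count divided by the library total. Symbols, gene types and chromosomes came from GENCODE for 60878 genes, and positions and promoters from RefSeq GRCh38.p14. Knockout was compared with control by edgeR 4.0.16 in R 4.3.3 (TMM, filterByExpr with a minimum count of 10, two-sided quasi-likelihood F-test). Calls needed a Benjamini-Hochberg adjusted p of at most 0.05 and a log2 fold change of at least 1 in size. On simulated data of 20992 genes for this comparison, 191 of 200 genes changed by an absolute log2 fold change of 3 were called, with 6 unchanged genes. All simulated controls shared the same mean for each gene, without the step of control 3. This recovery therefore does not describe the fit of the real libraries. Intervals were exact and binomial at 95%. Alternatives were DESeq2 1.42.0, limma-voom 3.58.1 with quantile normalization, no filter, the replicate number as a block, each library left out, and other settings of the rule.

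Genes named were the 15 protein-coding genes with the most CPM in controls 1 and 2, the 10 with the largest ratio, those next to the thresholds, those in a list or next to each other, and the 5 with the highest and 5 with the lowest ratio of control 3 to knockout. Further genes were named once their values had been seen. Totals of 88361827 to 93346824 counts put 1 count near 0.011 CPM. Single values of some genes are not reported here, though the counts and medians include them.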

Additional observations from a re-analysis of the deposited data

How the results depend on the processing

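The rule chose 138 genes at 4-fold and 42 at 16-fold. It chose 68 to 119 when a library was left out (119 without control 3). Leaving a library out can only loosen the rule, so each of those choices had to hold all 68. With 0 or 0.1 CPM added, a count minimum of 50 or 200, TMM library sizes or DESeq2 size factors it chose between 54 and 84. The median share kept in knockout was 0.822% to 0.942% with a library left out. Calls of knockout against control, 1482 as reported, were 334 in a fit with a replicate block and 156 to 4965 with a library left out (4965 without control 3), and 1418 to 1919 with no filter, DESeq2 or limma-voom. Calls in the gene lists, 71 as reported, were 22 with the block and 10 to 234 with a library left out. Of the 68 genes the block left 3 of 42 called lower, beside 153 of 20992 genes tested. Same-numbered control and knockout libraries deviated from their group means with correlations of 0.0101, 0.0306 and -0.0362. The step of control 3 is part of these deviations and could hide a small shared effect. The correlations therefore do not settle whether the numbers mark pairs. The cause of the changes in calls between settings was not tested. Counts of 0 to 3 in the low libraries limit the precision of the smallest shares.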

Other observations

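Among X-linked genes, which the rule left out, 11 passed the same thresholds. KLHL4 had 2946 and 2602 counts in controls 1 and 2, 0 in control 3 and 1, 5 and 2 in knockout. WWC3, a relative of the Hippo regulator KIBRA, had 3170 and 2925 counts in controls 1 and 2, 34 in control 3 and 2, 3 and 0 in knockout. GABRE, a subunit of GABA receptors, had 1591 and 1613 counts in controls 1 and 2, 10 in control 3 and 52, 56 and 85 in knockout. Among the others were SHROOM2, CLCN4, HDX, ZFP92, GABRQ, CNKSR2 and TMEM47. The 11 genes were chosen by their values and were not tested. With high and low libraries exchanged, the rule chose 81 autosomal genes.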
